A study of Oryza sativa Japonica Group with 6 samples.

Results

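Small RNAs of anthers at meiosis (MA) were compared between Taichung65-2x, a diploid japonica rice, and Taichung65-4x, its autotetraploid, which was obtained from Taichung65-2x by colchicine doubling and then selfed. The MA-2x anthers came from florets of 3.80–4.30 mm and measured 1.00–1.35 mm, and the MA-4x anthers came from florets of 4.80–5.30 mm and measured 1.45–1.95 mm. No other treatment is given for either line. Each line had 1 small RNA library at this stage, 2 of the 6 libraries of the series, and the number of plants behind a library is not given. Because the stage was set by length and the tetraploid organs are larger, staging and ploidy cannot be told apart. Whole anthers were used, so fewer cells of a type and less RNA per cell cannot be told apart either. With 1 library a side, every difference below is between libraries and no p-value or SD is given.

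miRNAs were matched by name between the list of each line. Of 486 names in all, 357 were listed for both lines, 45 for Taichung65-2x only and 84 for Taichung65-4x only. A list holds miRNAs above 10 normalized reads in at least 1 of the 3 stages of that line. Of the 357, 27 were at or under 10 in both meiosis libraries, which left 330 miRNAs (324 distinct sequences) to compare. Levels are normalized reads, the copy number multiplied by 1 factor per library, so that 1 read stands at 0.944 in MA-2x and 0.906 in MA-4x. A miRNA was called higher or lower in MA-4x where the values were over 2-fold apart (beyond 1 on the log2 scale). A fold is followed by its 95% counting interval (exact binomial) where both values are whole reads, which holds for 216 of the 330. Such an interval covers counting error of these libraries only.

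In plants, a miRNA is cut from a hairpin by DICER-LIKE1 as a duplex, and mostly 21 nt strands are loaded on ARGONAUTE1 to cleave mRNAs that they pair with along nearly their whole length. Some rice hairpins give 24 nt strands through DICER-LIKE3, which enter ARGONAUTE4-type proteins and can direct DNA methylation. Grass anthers also hold reproductive phased small RNAs (phasiRNAs): miR2118 starts the pre-meiotic 21 nt class and miR2275 the meiotic 24 nt class. Both families were well represented here, as anther libraries of grasses hold them: miR2118 made up 13.0% of the matched signal in MA-2x and 14.1% in MA-4x, and miR2275 13.8% and 14.7%. Some sequences are listed under several names. With each sequence counted once, at its highest value, miR2118 made up 13.3% and 14.4%, and miR2275 10.7% and 12.2%.

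The miRNAs with the largest ratios towards the tetraploid were a product of miR1432 and 24 nt strands. Sequences of some higher miRNAs with rice names are shown 5′ to 3′ as deposited, with T for U and with bases 2 to 8 (the seed) in capitals. Predicted miRNAs are left out here, also where their ratios are larger. The sequences are given because length and first base differ between the higher and the lower group. osa-MIR5083-p3, the opposite strand of osa-MIR5083-p5, is included for comparison. A name with MIR that ends in -p5 or -p3 is a strand of an annotated rice hairpin that is not itself annotated as a mature miRNA, R or L with a number gives bases gained or missing at the 3′ or 5′ end, and PC names are hairpins predicted by the study.
osa-miR1432-5p_R+1: aTCAGGAGagatgacaccgaca
osa-MIR2101-p3: aACAAGTTtggcactctgaacgat
osa-MIR5083-p5: gTCCTTCTgattgatagaaaccaa
osa-MIR5083-p3: aTGGATCCttctgagcct
osa-miR812g: aAGACGGAtgattaaagttggaca
osa-miR812n-5p_L-1R+1: aGTGCAGCcatgagtttccgtgcc
osa-miR1876: aTAAGTGGgtttgtgggctggccc

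The lower group was led by 21 nt strands, most of which start with T. The following are given because they have the largest ratios, are abundant, or belong to a hairpin whose arms differed, with the seed again in capitals.
osa-miR530-5p_R+1: tGCATTTGcacctgcacctac
osa-miR171e-5p: tGTTGGCTcggctcactcaga
osa-MIR2118l-p5: tTAGGAAGaggaagaaattga
osa-miR2118l: tTCCTAATgcttcccattccta
osa-miR162b: tCGATAAGcctctgcatccag
osa-MIR162b-p5: gGGCGCAGtggtttatcgatc
osa-miR5514: tCCCAGAGctttggccgtcgc
osa-miR5796: tCATTCAGgattgaagccgcc

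Over the 330 miRNAs, 19 (5.76%) were higher and 34 (10.3%) lower in MA-4x. The median log2 ratio of all was −0.26. Scaling the libraries to equal sums, to a median ratio of 1 or to the clean reads raised every log2 ratio by 0.31, 0.26 or 0.31. With the median ratio set to 1, 28 (8.48%) were higher and 16 (4.85%) lower, so the balance of higher and lower calls turned with the scaling. All 19 higher calls stayed under the 3 scalings, which was fixed in advance because each scaling raises every ratio. Of the 34 lower calls, which these scalings could remove, 14 stayed under each of them. A median that lies below 0 by less than 0.31 turns sign under at least 1 scaling. Ratios are therefore also given relative to the median of all miRNAs, and differences between classes, which no scaling changes, carry most of what follows.

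Levels were otherwise alike in both libraries. Across miRNAs, which are not independent replicates, log2(value + 1) correlated at r = 0.955 over the 357. The 5 most abundant distinct sequences took 27.2% of the signal in MA-2x and 29.1% in MA-4x, with each sequence counted once. osa-miR166a-3p, which cleaves mRNAs of HD-ZIP III factors of organ polarity, ranked first in both (8089 and 7673). osa-miR2275c_R-2 stood at 5448 and 5280. Of the 15 most abundant miRNAs, 1 was called: osa-miR5796, with 2517 in MA-2x and 1245 in MA-4x (2.02-fold lower, 1.89–2.16), and that call was lost under each other scaling.

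**Figure D1:**
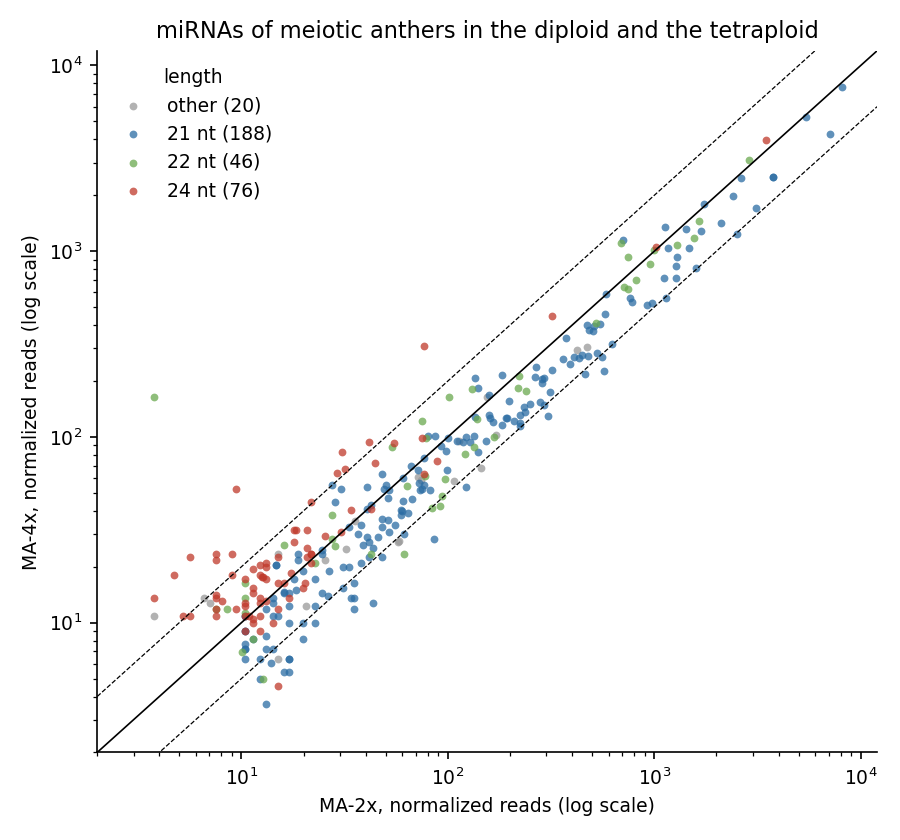
Normalized reads of the 330 compared miRNAs in MA-2x (horizontal, log scale) and MA-4x (vertical, log scale), coloured by length, with 1 point per miRNA. The solid line marks equal values and the dashed lines 2-fold. The 24 nt miRNAs lie mostly above the 21 nt miRNAs, and osa-miR1432-5p_R+1 is the lone 22 nt point above the upper dashed line.

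The clearest division was by length. Of 76 miRNAs of 24 nt, 15 were higher and 1 lower in MA-4x, which is 19.7% higher against 5.76% of all. Of 188 miRNAs of 21 nt, 1 was higher and 25 lower, which is 13.3% lower against 10.3% of all. The comparison asked for a value over 10 in only 1 of the libraries. Most of the 15 entered through MA-4x alone: osa-MIR2101-p3 (9.44 in MA-2x), osa-miR812v_1ss4GA (5.19) and most of the predicted ones. The 19.7% therefore rests largely on miRNAs that passed the minimum only in the library where they were higher. A lower miRNA could likewise enter through MA-2x alone. The median log2 ratio was 0.42 for 24 nt and −0.49 for 21 nt, or 0.69 and −0.23 relative to all. The 24 nt median thus exceeded the 21 nt median by 0.91, a difference that the scaling of the libraries does not touch.

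Of the other lengths, those of 20 and 22 nt had medians below that of 24 nt. The few of 23 nt (3 miRNAs, median 0.84) and 25 nt (1 miRNA, 0.64) lay above it. The 46 miRNAs of 22 nt, which include the mature miR2118 members, had a median of −0.16, with 1 higher and 4 lower. The 11 of 20 nt had a median of −0.73, with 3 lower and none higher, and their signal dropped from 1638 to 1068. The 24 nt miRNAs carried 5.91% of the matched signal in MA-2x and 8.99% in MA-4x, the 22 nt miRNAs 15.1% and 17.96%, and the 21 nt miRNAs 77.1% and 71.4%.

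Most of the 24 nt signal came from 1 hairpin whose products were not called. osa-miR5792_1ss22AC stood at 3461 in MA-2x and 3959 in MA-4x (1.14-fold, 1.09–1.20), and its opposite arm osa-MIR5792-p3 at 1016 and 1047. Together they took 4.21% of the signal in MA-2x and 5.81% in MA-4x. Without them the 24 nt share still stood 1.59 percentage points above that of MA-2x, against 3.08 with them.

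Low values limit what the 24 nt class shows. The called higher miRNAs had a median level of 16.3 over the 2 libraries, against 26.8 for the lower ones. Where only miRNAs over 50 in 1 of the libraries were kept, the 24 nt median was 0.73 and exceeded the 21 nt median by 1.21. Without the predicted hairpins the difference was 0.76.

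**Figure D2:**
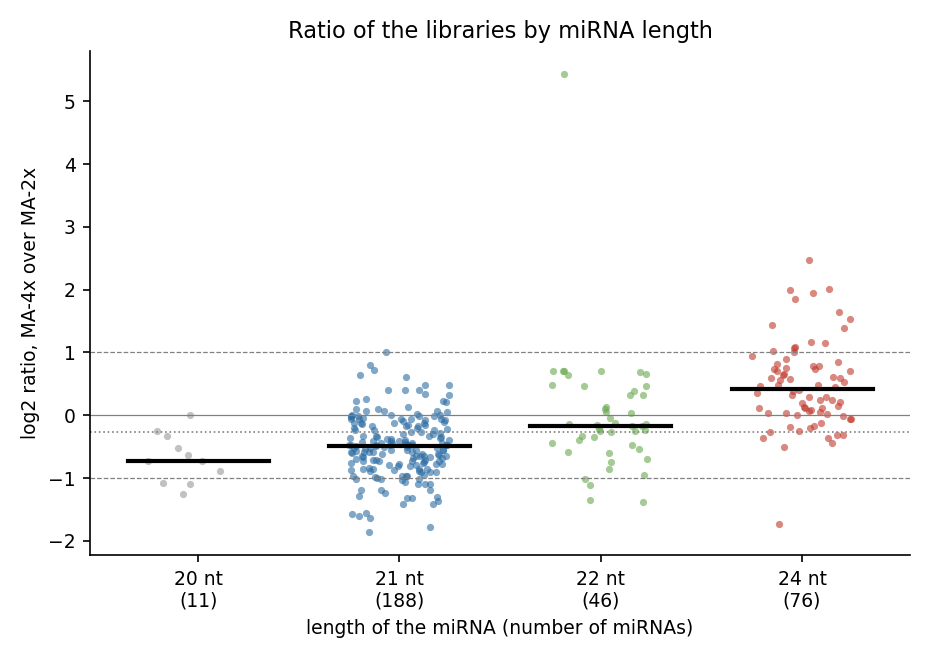
log2 ratio of MA-4x over MA-2x (vertical) for miRNAs of 20, 21, 22 and 24 nt, with 1 point per miRNA, the number of miRNAs in brackets and thick bars at the medians. Dashed lines mark 2-fold, the solid line equal values and the dotted line the median of all 330 at −0.26. The 24 nt median (0.42) lies above those of 20 nt (−0.73), 21 nt (−0.49) and 22 nt (−0.16).

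In medians, the same division by length ran through known miRNAs, unannotated strands of annotated hairpins and predicted miRNAs. Over all 330 miRNAs, 5.76% were higher and 10.3% lower. Among known rice miRNAs the median was 0.56 for 22 of 24 nt (4 higher, none lower) and −0.48 for 84 of 21 nt (1 higher, 9 lower). The share of these 84 that was lower is near that of all. Among unannotated strands of annotated rice hairpins it was 0.18 for 20 of 24 nt and −0.45 for 71 of 21 nt. The predicted hairpins were the farthest apart. Their 33 miRNAs of 24 nt had a median of 0.56 with 9 higher and none lower, and their 26 of 21 nt a median of −0.79 with 10 lower and none higher. With all lengths counted, the 63 predicted miRNAs had 9 higher and 10 lower and a median of −0.00.

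The first base, which in plants helps to decide which ARGONAUTE takes a strand, followed the length classes. Of 90 miRNAs that start with A, 13 were higher (14.4%, against 5.76% of all) and 4 lower (4.44%, against 10.3%), and 12 of those 13 were of 24 nt. Of 138 that start with T, 3 were higher (2.17%) and 17 lower (12.3%). Within 21 nt, the medians were −0.52 for A, −0.50 for C, −0.23 for G and −0.56 for T, and within 24 nt they were 0.42 for A, 0.24 for C, 0.29 for G and 0.70 for T, the last over 5 miRNAs. Within each first base the 24 nt median was above that of 21 nt.

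Named arms differed little. Over strands named 3p the median was −0.17 (7 higher and 12 lower of 99) and over those named 5p −0.23 (8 and 15 of 135). Within 24 nt the medians were 0.38 for 3p and 0.43 for 5p, and within 21 nt −0.47 and −0.52.

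The largest ratio of all belonged to osa-miR1432-5p_R+1, a 22 nt form of a miRNA that in rice acts on an acyl-CoA thioesterase gene of grain filling. It stood at 3.77 in MA-2x, which is 4 reads, and at 163.97 in MA-4x (43.4-fold, 16.7–161). At PMA, the pre-meiotic interphase, it stood at 5.39 and 196, and at SCP, the single microspore stage, at 69.3 and 215.

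Next came osa-MIR2101-p3 and osa-MIR5083-p5, 24 nt strands of rice hairpins. osa-MIR2101-p3 stood at 9.44 in MA-2x and 52.5 in MA-4x (5.57-fold, 2.82–12.2). osa-MIR5083-p5 stood at 76.4 and 307 (4.02-fold, 3.14–5.19), and it was the most abundant of the higher miRNAs. osa-miR1876, also of 24 nt but with a smaller ratio than several predicted miRNAs, stood at 41.5 and 93.3 (2.25-fold, 1.56–3.28). The intervals of osa-MIR2101-p3 and osa-MIR5083-p5 lie above 2-fold, and that of osa-miR1876 reaches below it.

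Predicted 24 nt miRNAs made up 9 of the 19 higher calls, most of them at low levels in the diploid. PC-5p-311831_53 stood at 5.66 and 22.7 (4.00-fold, 1.60–11.9), PC-3p-505302_34 at 4.72 and 18.1 (3.84-fold, 1.40–13.1) and PC-5p-284770_65 at 7.55 and 23.6 (3.12-fold, 1.37–7.97). PC-3p-300105_52 stood at 7.55 and 21.7 (2.88-fold, 1.25–7.42). PC-3p-247427_70 stood at 8.97 and 23.6, PC-3p-1659428_7 at 8.97 and 18.1, and PC-5p-931711_15 at 3.77 and 13.6. All 7 were at or below 10 in MA-2x and above 10 in MA-4x.

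The more abundant predicted miRNAs PC-5p-72854_262 (30.7 and 83.3, 2.72-fold) and PC-5p-50441_402 (31.6 and 67.0, 2.12-fold) begin with the same 11 bases, as does PC-5p-122014_164 (12.3 and 20.4), which was not called. They are shown with the shared run in capitals, since near-identical strands can share reads and are not separate cases.
PC-5p-72854_262: ACGAGACATTTtataggacaataa
PC-5p-50441_402: ACGAGACATTTcataggacaacga
PC-5p-122014_164: ACGAGACATTTcatataacaacga
These 3 names are 0.909% of the 330 compared, and without those that hold this run the 24 nt median still exceeded the 21 nt median by 0.87. Apart from this case no seed was shared: the 19 higher miRNAs had 18 distinct seeds and the 34 lower miRNAs had 34.

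The remaining higher miRNAs were short or low. osa-miR5788 was the only one of 21 nt, at 27.4 and 55.3 (2.02-fold, 1.28–3.26). osa-MIR156d-p3, of 23 nt and opposite to a miR156 strand, stood at 6.61 and 13.6 (2.06-fold, 0.789–5.96), and osa-MIR2122-p3_1ss19GT, of 19 nt, at 3.77 and 10.9 (2.88-fold, 0.873–12.3). The intervals of both include equal values. Of the 19 higher miRNAs, 12 had whole reads in both libraries and 10 of those had an interval clear of 1-fold.

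Among the lower miRNAs, the largest ratio was that of osa-miR530-5p_R+1, whose family in rice represses a grain size gene. It stood at 13.2 in MA-2x and 3.62 in MA-4x (3.65-fold lower, 1.15–15.2). osa-miR171e-5p, from a hairpin of the family that cleaves GRAS factor mRNAs, stood at 43.4 and 12.7 (3.42-fold lower, 1.85–6.74). osa-MIR1849-p3_1ss9TA, the only lower miRNA of 24 nt, stood at 15.1 and 4.53 (3.33-fold lower, 1.17–11.6). These 3 stayed lower under every scaling.

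Several lower miRNAs were abundant and have narrow intervals. osa-miR5514 stood at 568 and 227 (2.50-fold lower, 2.15–2.91), and it stayed lower under every scaling. osa-MIR5820-p5 stood at 307 and 130 (2.37-fold, 1.94–2.90), osa-MIR5518-p3 at 462 and 217 (2.13-fold, 1.82–2.49) and osa-miR5516a at 560 and 269 (2.09-fold). Under each of the 3 other scalings these 3 were less than 2-fold apart. Further lower miRNAs were named by the study for the meiosis stage. osa-MIR5806-p5 stood at 34.9 and 13.6 (2.57-fold lower, 1.38–5.04), osa-MIR5491-p5 at 48.1 and 22.6 (2.13-fold, 1.29–3.58) and osa-miR5072_L-2_1ss3AG at 144 and 67.9 (2.13-fold, 1.60–2.84). Only the first of these stayed lower under every scaling.

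Predicted 21 nt miRNAs gave 10 of the 34 lower calls. PC-5p-86809_361 was the most abundant, at 123 in MA-2x and 53.4 in MA-4x (2.295-fold lower, 1.67–3.18), and it was under 2-fold with each other scaling. PC-3p-113019_198 stood at 17.0 and 5.44 (3.13-fold lower, 1.19–9.62), PC-3p-120829_194 at 34.9 and 11.8 (2.96-fold, 1.54–6.08) and PC-5p-193547_107 at 16.0 and 5.44 (2.95-fold, 1.11–9.14). PC-3p-67260_339 (22.6 and 9.97) and PC-3p-87040_284 (31.1 and 15.4) are the same 20 bases displaced by 1 position, and both were under 2-fold with each other scaling. They are printed with the base that the other lacks in capitals.
PC-3p-67260_339: agatggctgatactcgaactC
PC-3p-87040_284: Tagatggctgatactcgaact
Of the 34 lower miRNAs, 28 had whole reads in both libraries and 27 of those had an interval clear of 1-fold. On either side of the call, osa-miR167a-3p_L+1R-1, osa-miR5796 and PC-3p-87040_284 lay just inside (2.02-fold each) and osa-MIR167c-p3 (1.99-fold), osa-miR5800 (1.97-fold) and osa-miR5509 (1.96-fold) just outside. For the higher side, osa-miR5788, PC-3p-1659428_7 and osa-miR812n-5p_L-1R+1 (2.02-, 2.02- and 2.04-fold) were just inside, and PC-3p-253452_68, hvu-miR1436_L+3_2ss5CT13GA and PC-5p-148418_156 (1.92-, 1.86- and 1.80-fold) just outside.

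**Figure D3:**
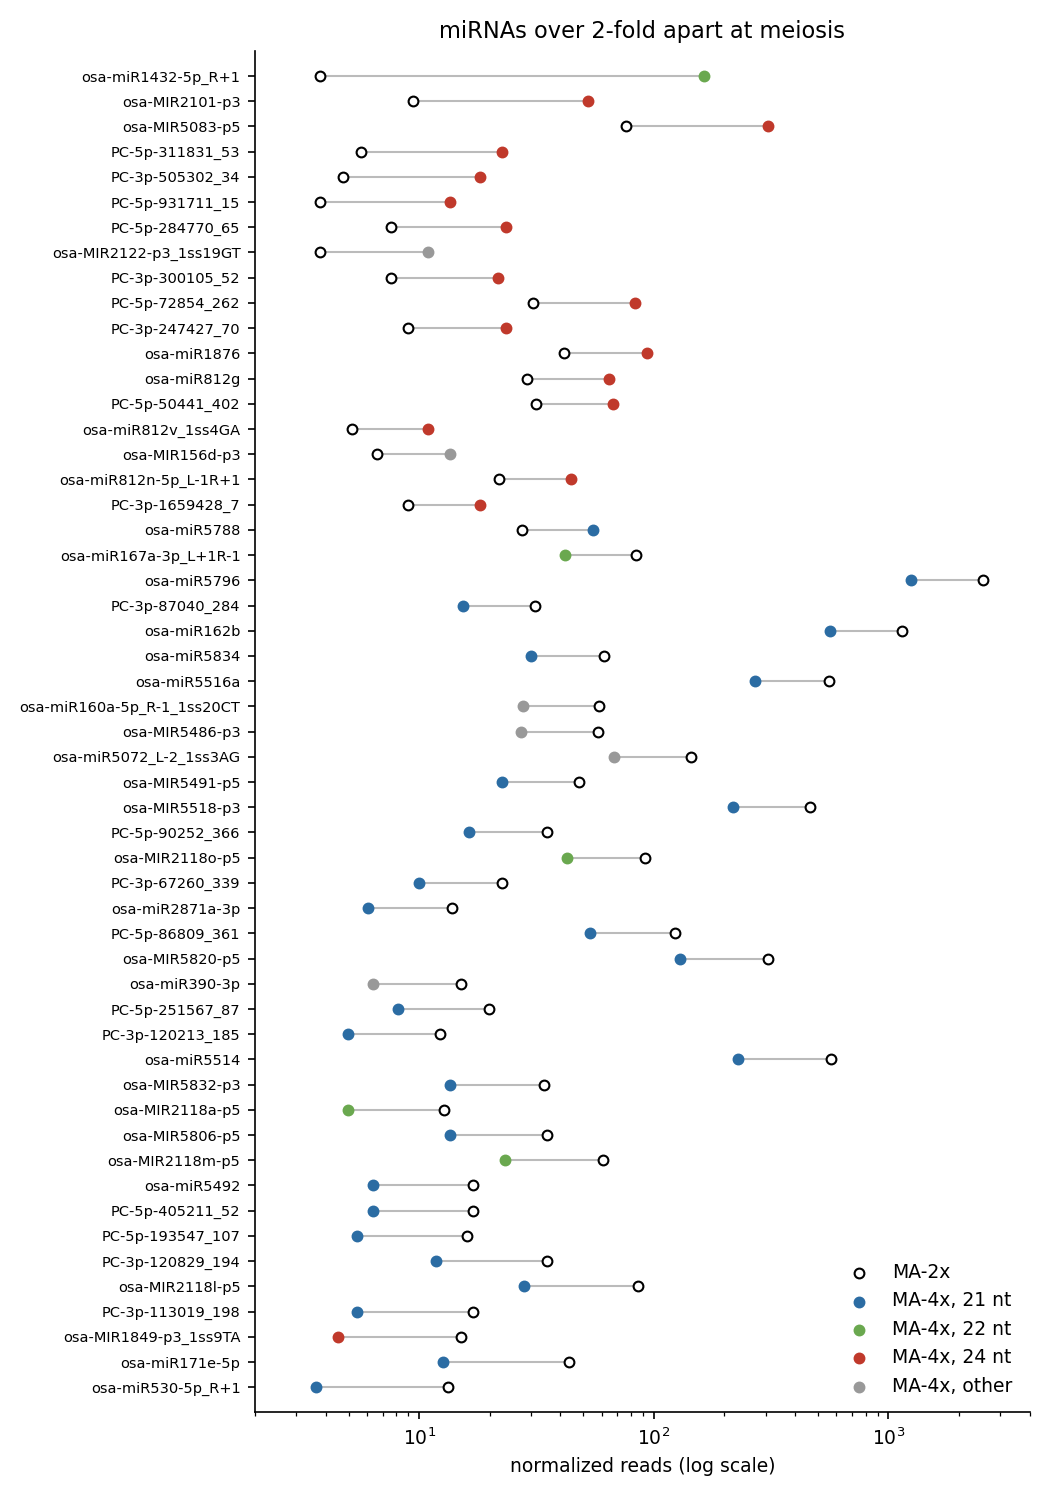
Normalized reads (horizontal, log scale) of the 19 miRNAs higher and the 34 lower in MA-4x, 1 line per miRNA ordered by ratio, with open circles for MA-2x and filled circles for MA-4x coloured by length. The upper group is mostly 24 nt (15 of 19) and lies mostly under 100, while the lower group is mostly 21 nt (25 of 34) and reaches osa-miR5796 at 2517.

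The triggers of phasiRNAs are described first among the families, by their roles. Of their 38 compared members none was higher and 4 were lower (10.5%, near the 10.3% of all), and their median of −0.29 lay at −0.03 relative to all. All 4 lower members were opposite strands of miR2118. The 12 mature miR2118 members, which cleave phasiRNA precursors, had a median of −0.21 and ranged from −0.44 to 0.10, with none called. Their values summed to 11968 in MA-2x and 10913 in MA-4x, and osa-miR2118d, the most abundant, stood at 2873 and 3078.

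The 18 opposite strands of miR2118 had a median of −0.59, which is −0.33 relative to all, and their sum was 1821 in MA-2x and 1205 in MA-4x. osa-MIR2118l-p5 stood at 85.9 and 28.1 (3.06-fold lower, 2.01–4.76), and osa-MIR2118o-p5 at 91.5 and 42.6 (2.15-fold, 1.50–3.11). osa-MIR2118m-p5 stood at 61.0 and 23.3 (2.62-fold) and osa-MIR2118a-p5 at 12.7 and 4.98 (2.56-fold). All but osa-MIR2118o-p5 stayed lower under every scaling. The 18 names are 15 sequences, since c and q, d and p, and j and m share theirs, and many of their values are not whole reads. osa-MIR2118j-p5, with the sequence of osa-MIR2118m-p5, stood at 93.1 and 48.2 (log2 ratio −0.95) and was not called, so names of 1 sequence stood on both sides of the threshold.

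None of the 8 members of miR2275 was called as deposited, and they ranged from −0.58 to 0.70. osa-MIR2275c-p3 passed 2-fold with equal sums and by clean reads, and osa-miR2275d by clean reads. The 22 nt osa-miR2275d, of the length that starts phasing, stood at 687 and 1106 (1.61-fold higher) and osa-MIR2275c-p3 at 75.02 and 121.8 (1.62-fold). The 5p strands zma-miR2275b-5p_1ss12CG and zma-miR2275c-5p_2ss14CA15TC stood at 3745 and 2500 and at 3746 and 2502 (1.50-fold lower). These 2 names have the same sequence, so 1 strand is counted under both and the 8 names are 7 sequences. Within this family the 3p strands named as such had a median of 0.33 over 3 members, and the 5p names, a single sequence, stood at −0.58. Names that give no arm are outside both sets. osa-miR2275c_R-2, the abundant strand opposite to osa-MIR2275c-p3, had a log2 ratio of −0.05. osa-miR2275a_1ss15AG had −0.33 and osa-miR2275d 0.69, so the named strands do not describe the arms of the whole family.

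The long and transposon-derived miRNAs were the list with the highest median. Of 13 members, 4 were higher (30.8%, against 5.76% of all) and none lower, the median was 0.76 (1.02 relative to all), and 11 of the 13 are of 24 nt. The miR812 hairpins, which lie in transposable elements, gave 3 of these calls: osa-miR812g stood at 28.9 and 64.2 (2.22-fold), osa-miR812n-5p_L-1R+1 at 21.8 and 44.3 (2.04-fold) and osa-miR812v_1ss4GA at 5.19 and 10.9 (2.09-fold). osa-miR812o-5p_L+4R-1_1ss10TC stood at 44.2 and 72.0 and osa-miR812s_1ss11AG, the lowest of the list, at 20.3 and 16.3. osa-miR1874-3p stood at 54.7 and 92.4 (1.69-fold, 1.21–2.37), and it passed 2-fold under each other scaling. The 24 nt class as a whole had a median of 0.42, and no test set this list apart from its length.

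The miRNAs of copper proteins and laccases had the second highest median, with no call as deposited. With equal sums or by clean reads 3 of the 5 passed 2-fold (osa-miR528-5p and both strands of MIR397b), and with the median ratio none did. Of 5 members, 4 had ratios between 1.53- and 1.64-fold, and the list median was 0.71 (0.97 relative to all). osa-miR528-5p, which represses copper oxidases such as ascorbate oxidase, stood at 703 and 1152 (1.64-fold, 1.50–1.80). osa-miR408-3p, which acts on plantacyanin-type copper proteins, stood at 135 and 207 (1.53-fold, 1.24–1.90). osa-MIR397b-p5, from a hairpin of the laccase regulator miR397, stood at 53.8 and 87.9 (1.63-fold, 1.17–2.31) and its other arm at 16.0 and 26.3 (1.64-fold, 0.870–3.18). The exception, osa-miR408-5p, stood at 10.4 and 7.25. The 5 members measure 21 or 22 nt, so this list does not belong to the 24 nt class.

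The median of the auxin response miRNAs lay below that of all. Of 11 members 3 were lower (27.3%, against 10.3% of all) and none higher, and the median was −0.42 (−0.16 relative to all). The 21 nt class as a whole had a lower median (−0.49), and no test set this list apart from its lengths. osa-miR160a-5p_R-1_1ss20CT, a form of the miRNA that limits repressing auxin response factors, stood at 58.2 and 27.7 (2.11-fold lower). osa-miR390-3p, the passenger of the trigger of trans-acting siRNAs against auxin response factors, stood at 15.1 and 6.34 (2.38-fold lower, 0.927–6.84). osa-miR167a-3p_L+1R-1, opposite to the regulator of activating auxin response factors, stood at 83.99 and 41.67 (2.02-fold lower, 1.40–2.94). Under each other scaling these 3 were less than 2-fold apart. The mature osa-miR390-5p stood at 267 and 236, osa-miR167a-5p at 545 and 406 and osa-miR160e-5p at 251 and 151.

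miRNAs that act on the small RNA machinery itself gave 1 lower call among 6 members. osa-miR162b, which cleaves DICER-LIKE1 mRNA, stood at 1140 in MA-2x and 561 in MA-4x (2.03-fold lower, 1.84–2.24), under 2-fold with each other scaling. osa-miR162a, with another seed, stood at 781 and 532 (1.47-fold lower, 1.32–1.64). osa-miR168a-5p, which cleaves ARGONAUTE1 mRNA, stood at 1732 and 1796, and osa-miR168a-3p_L-3 at 1288 and 932.

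The lists of miR166, of miR171 and of the SPL regulators, which act on transcription factors of organ and flower development, had medians near that of all. None of the 16 names of the miR166 family, which holds regulators of HD-ZIP III genes and their opposite strands, was called. Their median was −0.24, from −0.91 for osa-miR166i-3p_L+2R-2 to 0.23 for sbi-miR166e_3ss16AT17TC21TC, whose sequence is also listed as sbi-miR166a_R+1_1ss17TC with 76.9 and 77.0. The 6 with the seed of osa-miR166a-3p had a median of −0.04, and the 5 with the seed of osa-miR166b-5p one of −0.27. Of the 8 members of miR171, 1 was lower (median −0.15), and the abundant osa-MIR171i-p3 stood at 7089 and 4286 (1.65-fold lower, 1.59–1.72). The 9 SPL regulators of miR156, miR529 and miR535 had 1 higher and a median of −0.12, with osa-miR156a at 170.9 and 103 and osa-MIR529a-p5 at 1423 and 1324. The medians of the miR166, miR171 and SPL lists turn above 0 when the libraries are scaled to equal sums.

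The smaller lists held no call. The 3 members of miR172, which restrain AP2-like floral genes, had a median of −0.66: osa-miR172d-5p_R+1 stood at 43.4 and 25.4, osa-miR172a at 45.8 and 29.0 and osa-miR172b at 40.6 and 53.4. The 4 of miR396, which act on growth-regulating factors, had a median of −0.46, with osa-miR396e-5p at 2093 and 1412 and osa-miR396c-3p at 48.1 and 63.4. The GAMYB and TCP regulators had a median of 0.02, with osa-miR159a.1, which limits GAMYB factors of anthers, at 1127 and 1353 and osa-miR319a-3p.2-3p_R+1 at 28.3 and 44.4. The NAC regulator osa-miR164a stood at 158.1 and 168.4. osa-miR394, an F-box regulator, stood at 473 and 306, and osa-MIR169a-p5, a 24 nt strand of an NF-YA regulator, at 319.3 and 445.3. osa-miR1425-5p, which acts on fertility restorer-like PPR genes, stood at 1684 and 1277 (1.32-fold lower, 1.23–1.41). The phosphate-responsive osa-miR827 stood at 24.5 and 14.5 and the sulfate-responsive osa-miR395b_L-1 at 20.5 and 12.3. No miR444 member, regulators of MADS-box genes, was among the compared miRNAs.

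**Figure D4:**
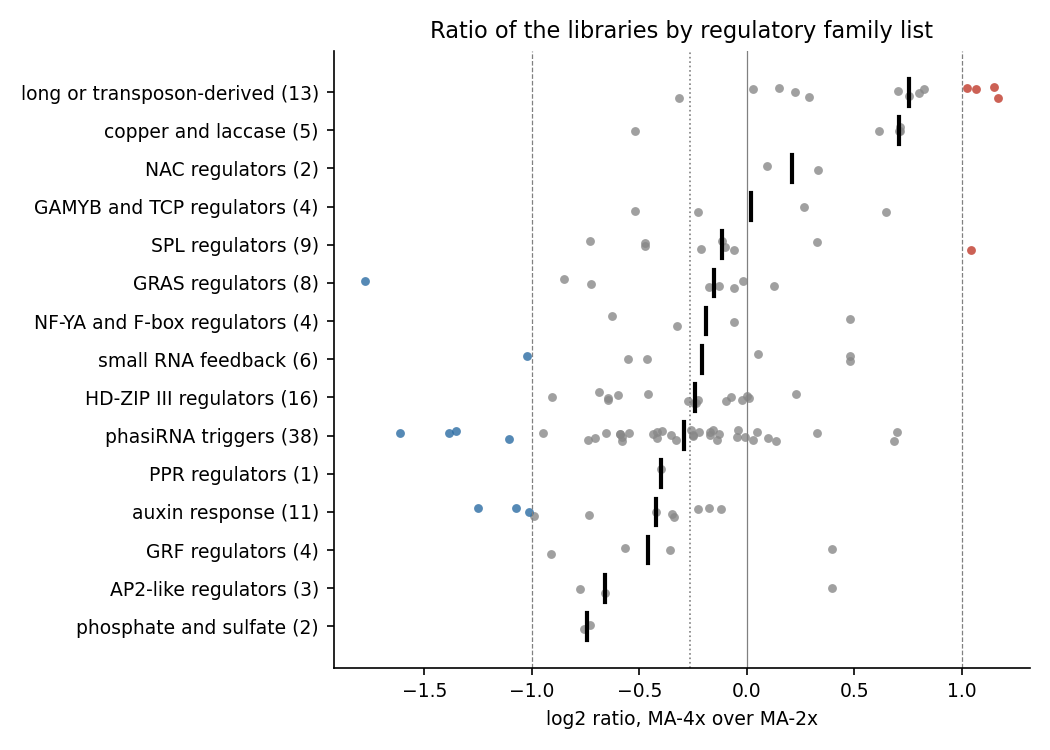
log2 ratio of MA-4x over MA-2x (horizontal) for the members of 15 regulatory lists, with the number of members in brackets, 1 point per miRNA, red for higher, blue for lower and grey for neither, and thick bars at the medians. The solid line marks equal values, the dashed lines 2-fold and the dotted line the median of all at −0.26. The long or transposon-derived (0.76) and the copper and laccase lists (0.71) have the highest medians, and the 4 lower phasiRNA triggers are all opposite strands of miR2118.

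Both strands of 68 hairpins were compared in 69 pairs, 67 of them from hairpins with rice names and 2 from a maize-named hairpin of miR2275. The strands of a pair differed by a median of 0.36 on the log2 scale. In 50 pairs both had ratios of the same sign as deposited, where the median of all is below 0, and this count can move with the scaling. In 10 pairs they differed by over 1. A difference within a pair does not move with the scaling of the libraries, but it carries the counting error of both strands. Among the 10 pairs, the intervals of both miR390 strands, osa-miR408-5p, osa-MIR5518-p5, both MIR7692 strands, osa-MIR5083-p3 and osa-miR5486 include equal values. Some other strands of these pairs have no interval.

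MIR5083 had the widest gap. Its 24 nt 5p strand stood at 76.4 and 307, whereas the 18 nt 3p strand stood at 153.8 and 163.97, so that the 3p strand was the more abundant in MA-2x and the 5p strand in MA-4x. The log2 ratios were 2.01 and 0.09. MIR7692 had a 24 nt and a 21 nt strand as well, with osa-MIR7692-p5 at 15.1 and 22.6 and osa-MIR7692-p3_1ss11AG at 38.7 and 26.3.

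In other pairs 1 strand was called and its partner was nearly equal in both libraries. osa-miR2118l stood at 220 and 214 while osa-MIR2118l-p5 was 3.06-fold lower, and osa-miR2118a stood at 219 and 184 while osa-MIR2118a-p5 was 2.56-fold lower. osa-miR5486 stood at 51.9 and 51.6, and its opposite strand osa-MIR5486-p3, of 18 nt, at 57.6 and 27.2 (2.12-fold lower, 1.35–3.40), a call lost under each other scaling. In MIR5518 the abundant strand was the lower one (osa-MIR5518-p3), and osa-MIR5518-p5 stood at 10.4 and 10.9. For miR162 the mature strands had ratios below 1 while osa-MIR162a-p5 and osa-MIR162b-p5, which are identical in sequence, both stood at 14.6 and 20.4. miR390 and miR408, given above, complete the 10.

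**Figure D5:**
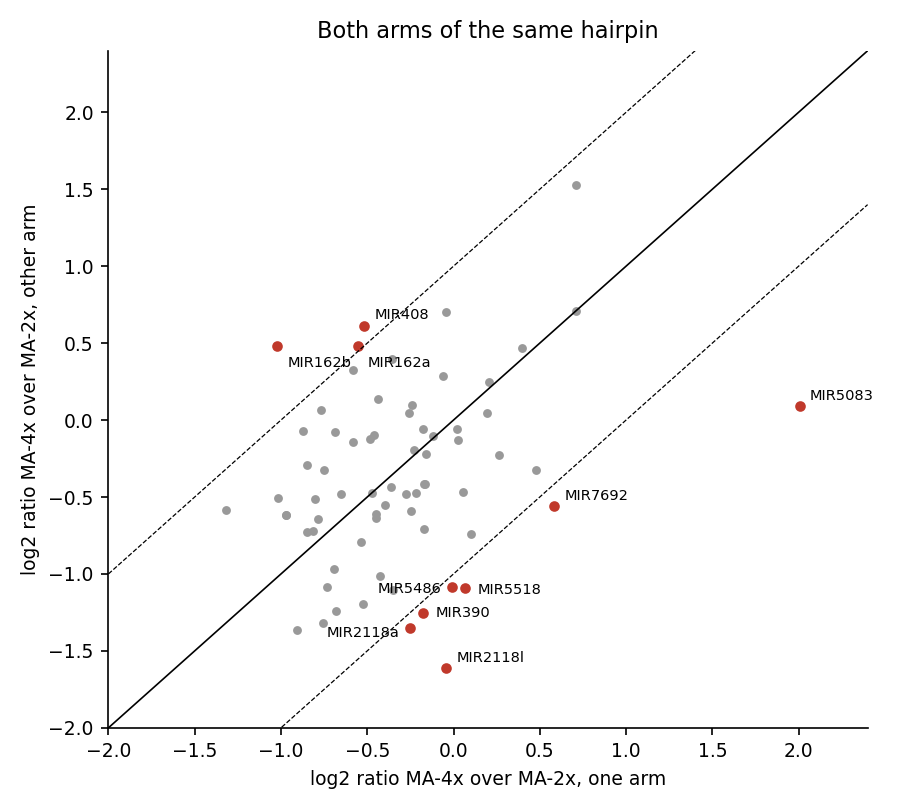
log2 ratio of MA-4x over MA-2x of one strand (horizontal) and the other strand (vertical) of the same hairpin, 1 point per pair, 69 pairs, 67 of them with rice names. The solid line marks equal ratios, the dashed lines a difference of 1, and the 10 pairs beyond it are red and named. MIR5083 lies farthest, at 2.01 and 0.09.

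The called miRNAs were also followed at the stages that the comparison did not use. From PMA to SCP in Taichung65-4x, the median log2 change was 0.85 for the 19 higher miRNAs, −1.96 for the 34 lower ones and −1.16 for all 330. In Taichung65-2x the same medians were −0.28, −1.34 and −1.01. In the tetraploid 15 of the 19 higher miRNAs stood higher at SCP than at PMA, against 7 of 19 in the diploid. Of all 330, 99 did so in the tetraploid and 76 in the diploid. Length moved with this as well: the 76 of 24 nt had medians of 0.38 in Taichung65-4x and −0.45 in Taichung65-2x. Of these 24 nt miRNAs, 54 stood higher at SCP than at PMA in the tetraploid and 18 in the diploid. The part of length in the course of the called miRNAs was not tested. Across PMA, MA and SCP, osa-MIR5083-p5 stood at 280, 307 and 388 in the tetraploid but at 131, 76.4 and 53.3 in the diploid. Over the same stages osa-miR171e-5p stood at 66.6, 12.7 and 10.4 in the tetraploid, and in the diploid it stood at 39.1, 43.4 and 7.996, which put the tetraploid below the diploid at MA and above it at PMA and SCP.

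The length division had the other sign before meiosis. The 24 nt median of the ratio of the tetraploid to the diploid exceeded the 21 nt median by 0.91 at MA and by 1.25 at SCP, whereas at PMA it was below it (−0.25). Each stage has its own pair of libraries, and the difference between stages was not tested.

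Names listed for 1 line only give a bound. Of 84 listed for Taichung65-4x only, 62 were of 24 nt, against 88 of the 357 listed for both lines, and 39 exceeded 10 in MA-4x. Of 45 listed for Taichung65-2x only, 26 were of 21 nt and 11 exceeded 10 in MA-2x. That share of 21 nt was near the 198 of 357 among names listed for both lines. In each case 1 exceeded 20. PC-3p-1530584_11, of 24 nt, stood at 21.7 in MA-4x, osa-miR1320-5p_L-1R+1 at 19.9 and osa-miR6250_R+1 at 18.1, and osa-MIR6250-p5 stood at 13.6. PC-3p-403976_40 stood at 15.4 and PC-3p-550716_26 at 11.3. In MA-2x osa-miR5837.2 stood at 21.7, PC-5p-563680_30 at 16.5 and PC-5p-434387_55 at 15.1. Against the listing limit of 10, the first of each group was at least 2.17-fold higher in its own line as deposited. The bound of every other name was under that, and the fold itself is not known for any of them. The other scalings, which raise every ratio towards MA-4x, lower the bound of osa-miR5837.2.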

How the data were processed

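Anthers at meiosis of Taichung65-2x and Taichung65-4x were compared, 1 small RNA library each. The authors used a TruSeq small RNA kit and 36 bp single-end reads, filtered them with ACGT101-miR, annotated miRNAs against miRBase 20 and a rice genome (build not given in the sources used here), and multiplied copy numbers by 1 factor per library from a regression on common sequences. The deposited signal is this normalized read number. Listed miRNAs hold 1.64% and 1.66% of the clean reads. Not all values are whole reads: 74.1% (MA-2x) and 72.3% (MA-4x) are at a tolerance of 0.01. Depth beyond this is limited by the listing.

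Names were matched between the tables. A miRNA was compared where the larger value exceeded 10 and called beyond 2-fold. A listed 0 was set at 0.01, and unlisted names were left out. No p-value is given, since each group has 1 library. A Fisher test on rounded values served only as an alternative filter on the calls, and it compares reads of the libraries, not the lines. Named miRNAs are the 15 largest ratios each way among those that reach 20 in 1 of the libraries, the 15 with the highest levels, the 8 most abundant of each line's own names, those the study names for meiosis, called members and extremes of the lists, hairpin strands over 1 log2 apart, and the 3 names on each side of the threshold, summarised where they are many. The members and lists were chosen with earlier results of these data known. Genome coordinates were not used here. Sequences are as deposited. Python 3.11.15, pandas 2.3.3, numpy 2.4.6, scipy 1.17.1 and matplotlib 3.10.9 were used.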

Additional observations from a re-analysis of the deposited data

Results flagged for a closer look

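Names listed for 1 line only lie outside the comparison, and 1 in each line exceeded 20 normalized reads at meiosis, above the listing limit of 10 that applies to the other line. PC-3p-1530584_11 stood at 21.7 in MA-4x and osa-miR5837.2 at 21.7 in MA-2x. PC-3p-1530584_11 is a predicted 24 nt miRNA and osa-miR5837.2 a known rice miRNA of 21 nt. The names next in level had the opposite lengths. osa-miR1320-5p_L-1R+1 (19.9 in MA-4x) is of 21 nt and PC-5p-563680_30 (16.5 in MA-2x) of 24 nt.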

How the results depend on the processing

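All values below concern the same 2 libraries. No paired analysis was possible because each group has 1 library. Against 19 miRNAs higher in MA-4x, the count was 37 with equal sums, 38 by clean reads, 8 over a minimum of 50, 6 with a pseudocount of 10, 48 over 1.5-fold and 3 over 4-fold. Against 34 lower, it was 14 with equal sums, 16 with the median ratio, 14 by clean reads, 15 over 50, 11 with a pseudocount of 10, 97 over 1.5-fold, 0 over 4-fold and 20 with a Fisher filter on rounded values against the table sums, which compares reads of these libraries and not the lines. Of those chosen after seeing the data, counting intervals clear of 1-fold left 10 higher, out of the 12 higher miRNAs that have an interval. The median log2 ratio of all (−0.26) turned to 0.041 with equal sums and 0.050 by clean reads, was 0 by construction with the median ratio and −0.40 over 50. The 21 nt median became −0.18, −0.23 and −0.18 under these 3 scalings (equal sums, then median ratio, then clean reads), and the 24 nt median 0.73, 0.69 and 0.74 (0.73 over 50). Their difference (0.91) was 1.21 over 50 and 0.68 with a pseudocount of 10, and between 0.76 and 1.10 in the other alternatives, 3 of which (no predicted hairpins, a mean over 30, and no names with the shared run) were added after seeing the data. The gain of the 24 nt share (3.08 points) was 2.03 without names of variants and, chosen after seeing the data, 1.59 without the MIR5792 products. The causes of these moves were not tested. Scalings shift every ratio alike.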
